A study of Arabidopsis thaliana with 9 samples.

Results

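Complemented plants, csld5 mutants that carry a CSLD5 transgene under the ATML1 promoter (genotype pATML1::GFP+CSLD5-csld5), were compared with csld5 mutant plants over all genes of the deposited count table. The libraries were picked by their genotype labels: 3 complemented and 3 csld5 libraries of the 9 in the series, with all 25760 listed genes. The remaining 3 libraries, from wilD-type col-0 plants of Arabidopsis thaliana, entered the statistical fit and are given for orientation. Each library was made from RNA of dissected inflorescence meristems. Both compared groups carry the csld5 mutation and differ in the transgene, so the comparison asks which transcripts move when the mutant expresses CSLD5 again from a promoter that acts in the outermost cell layer. The labels do not say how many transgenic lines were used, whether GFP is fused to CSLD5, which lesion the mutant carries, or whether each library stands for a different plant. The p-values therefore measure the spread between these libraries, which may be technical.

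CSLD5 belongs to the D group of cellulose synthase-like enzymes, which make cell wall polysaccharide and are known for their part in the new wall laid down between daughter cells at division. ATML1 is a homeodomain regulator of epidermal identity, and its promoter drives expression in the L1, the single cell layer that covers the shoot meristem and becomes the epidermis. Stem cells of the meristem are held in place by the WUS and CLAVATA loop together with cytokinin, and organs arise on the flanks where auxin accumulates.

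Every listed gene had at least 1 read in col-0 replicate 1, whereas 932 to 1540 listed genes had none in each of the other libraries. Genes without a read in that col-0 library are therefore not analysed here. Total counts were 37484382 to 45679471 in complemented, 37921670 to 38513445 in csld5 and 35543318 to 43575089 in col-0 libraries. Meristem markers were present in every library: STM, which keeps meristem cells undifferentiated, was at 45.9 to 51.8 CPM (counts normalised for library size) in complemented, 59.8 to 61 CPM in csld5 and 52 to 55 CPM in col-0 libraries, and the epidermal gene PDF1 was at 545 to 596, 591 to 628 and 643 to 656 CPM in the same order. AP1, a floral gene, was at 213 to 230.1 CPM in complemented and 169 to 232 CPM in csld5 libraries, and markers of tapetum and pollen were read in all 9, as in floral buds. CLV3, the peptide gene that defines the stem cells, had 4 reads over the complemented, 0 over the csld5 and 6 over the col-0 libraries and was not tested. In bulk tissue fewer cells of a type and less RNA per cell cannot be told apart.

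CSLD5 (chr1:594502-598657, TAIR10.1) was read at 856, 935 and 1013 CPM in complemented libraries, against 26.9, 28.1 and 26.8 CPM in csld5 and 131, 135 and 126 CPM in col-0 libraries. The groups did not overlap, and the complemented libraries lay above col-0 as well as above the mutant. The log2 fold change was 5.10 ± 0.08 against csld5 (SE, n = 3 against 3, edgeR quasi-likelihood test, adjusted p = 7.1e-14) and 2.84 ± 0.07 against col-0. Throughout, ± after a log2 fold change is its SE and ± after a mean CPM the SD of 3 libraries. Reads from the transgene and from the endogenous gene were not told apart. ATML1 itself had 130.4, 142 and 149.8 CPM in complemented and 158, 141 and 162 CPM in csld5 libraries, which overlap, with a log2 fold change of -0.13 ± 0.07 that did not pass the test (edgeR adjusted p = 0.14). With limma on the deposited TPM it was called, at -0.22 to -0.23.

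In all, edgeR called 9273 of 22671 tested genes at an adjusted p below 0.05, which is 40.9%. Of these, 4500 (19.8% of the tested genes) were higher and 4773 (21.1%) were lower in complemented than in csld5 libraries. Most changes were small: the median absolute log2 fold change of called genes was 0.42, while 1233 genes (5.44%) changed by at least 1 on the log2 scale, 955 up (4.21%) and 278 down (1.23%). Among changes of at least 2, 187 genes rose and 25 fell. The rises include transcripts encoded in the chloroplast, of which 82 were tested, with a median log2 fold change of 2.18. Genes read in csld5 but not in col-0 replicate 1 are outside these counts, so the balance of large changes holds for the listed genes only. For orientation, the same fit called 346 genes (1.53%) in complemented against col-0, 215 higher (0.948%) and 131 lower (0.578%). In csld5 against col-0 it called 9417 (41.5%), 4790 higher (21.1%) and 4627 lower (20.4%). These comparisons share libraries with the one described. The direction of small changes depends on the scaling. Scaled by library totals alone, 6422 genes were higher and 3171 lower, and the median log2 fold change of all genes moved to 0.11 from 0.02.

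**Figure D1:**
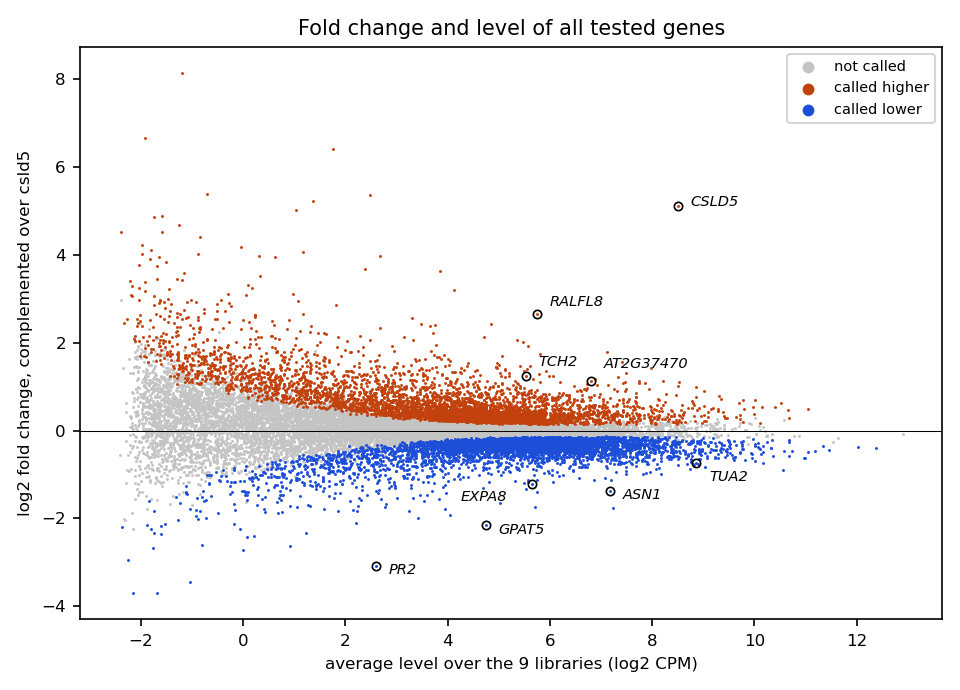
Each point is 1 tested gene. The x axis is the average level over the 9 libraries (log2 CPM) and the y axis the log2 fold change of complemented over csld5 libraries, with called genes in colour and some genes of the text circled. CSLD5 stands at 5.10, far above other genes of its level, and most called genes lie within 1 of the zero line.

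The fold changes also followed gene structure. Across 22580 genes with an annotated model, the log2 fold change ran against exon GC content (Spearman's rho = -0.46) and against total exon length (rho = -0.45), values across genes that are not independent replicates. In the quintile of genes with the shortest exons 40.9% were called higher and 3.05% lower, whereas in the quintile with the longest 5.94% were higher and 38.5% lower. For GC content the quintile with the lowest values had 44.0% higher and 4.32% lower, and the quintile with the highest had 5.56% higher and 45.5% lower. A correction that removes each library's own trend with GC content and length left 6016 called genes (26.5%), 2578 higher (11.4%) and 3438 lower (15.2%). Of these, 4311 had been called with the same sign before it and 72 with the opposite sign. Values after this correction are written as corrected below. The part of gene structure in each single result was not tested.

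**Figure D2:**
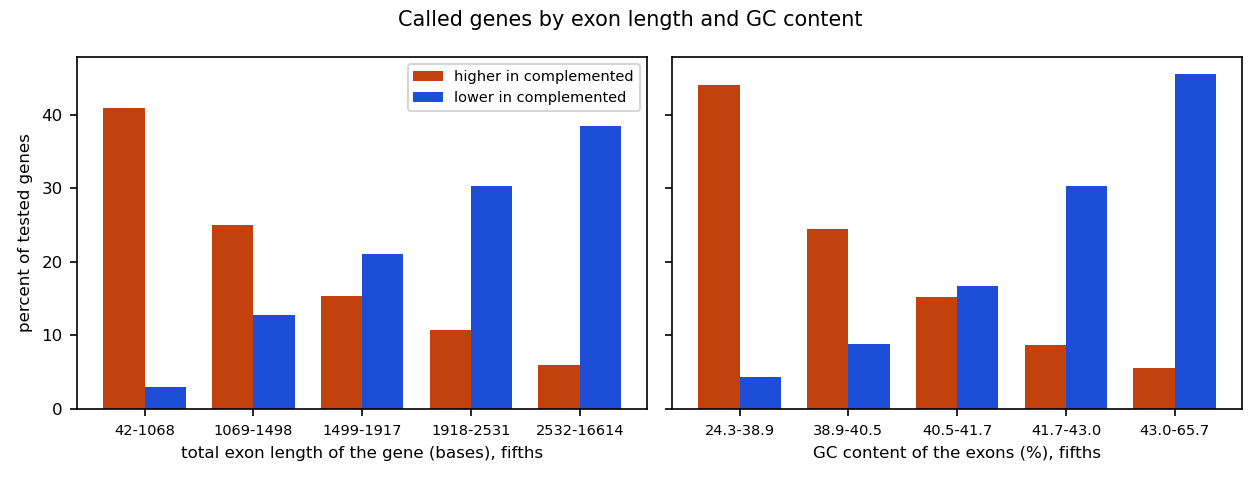
Bars give the percent of tested genes called higher or lower in complemented than in csld5 libraries, for quintiles of genes ordered by total exon length (left, in bases) and exon GC content (right, in percent). Short and low-GC genes were mostly called higher, long and high-GC genes mostly lower.

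The largest rises of nuclear genes besides CSLD5 included a pair of neighbouring peptide genes. RALFL8 (chr1:22714921-22715448) and RALFL9 (chr1:22717060-22717610) encode RALF-like peptides, a family of small secreted peptides that bind receptor kinases at the cell wall. RALFL8 had 99.6, 82.9 and 82.4 CPM in complemented, 17.1, 15.3 and 9.95 CPM in csld5 and 50.7, 68.2 and 56.9 CPM in col-0 libraries. Every complemented library lay above every csld5 library, and the log2 fold change was 2.65 ± 0.16, corrected 1.82 (edgeR adjusted p = 8.6e-07). RALFL9 had 24, 18 and 21.6 CPM in complemented and 5.79, 5.25 and 2.72 CPM in csld5 libraries (2.21 ± 0.20, corrected 1.19). Another peptide gene of the family, RALF1, rose (0.87 ± 0.11, corrected 0.45). It belongs to a list of 16 wall integrity receptors and RALF peptides in which 2 rose and 3 fell (corrected 1 and 6). RALFL8 and RALFL9 are not in that list.

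Several of the other large rises were in short or uncharacterised genes. AT3G01795, which has no product name in the annotation, stood at 9.94, 11.1 and 8.8 CPM in complemented and 0.78, 0.569 and 0.54 CPM in csld5 libraries (3.98 ± 0.17, corrected 2.73). AT1G19020 had 9.11, 4.89 and 12.7 CPM in complemented and 0.668, 0.758 and 0.647 CPM in csld5 libraries (3.68 ± 0.39, corrected 2.84), with a wide spread within the complemented group. AT1G49500, AT4G36500, AT1G22890, AT1G65490, AT3G03265 and AT5G00705 rose by 2.12 to 2.55 (corrected 1.06 to 1.95). None of these 6 overlapped between the groups, as was the case for 51.6% of all tested genes, but in the deposited TPM values AT3G03265 went the other way (-0.52 with limma). AT1G75945 was called higher on 16 reads over the complemented and 0 over the csld5 libraries, while the col-0 libraries had 15.2, 18 and 15.7 CPM, and the complemented libraries 0.225, 0.104 and 0.0429 CPM, which is lower than col-0 (edgeR adjusted p = 4e-08).

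The largest falls of nuclear genes included defence and suberin genes. PR2, a beta-1,3-glucanase induced by salicylic acid, had 1.57, 1.95 and 1.22 CPM in complemented, 14.4, 13.3 and 12.4 CPM in csld5 and 3.7, 4.12 and 2.47 CPM in col-0 libraries (-3.08 ± 0.20, corrected -2.94). GPAT5, an acyltransferase of suberin synthesis, had 22.6, 13.1 and 6.89 CPM in complemented against 67.8, 59.4 and 62.3 CPM in csld5 and 3.01, 4.08 and 4.38 CPM in col-0 libraries (-2.16 ± 0.27, corrected -1.95). The 3 complemented libraries differed widely among themselves, and all lay below csld5 and above col-0. ABCG6, a transporter of suberin monomers, had 7.67, 7.08 and 2.9 CPM in complemented and 21.4, 23.8 and 24.8 CPM in csld5 libraries (-1.99 ± 0.25, corrected -1.57). In GPAT5, AT3G60780, CYP76C3, AT3G22910 and AT2G38240 complemented replicate 1 was the highest and replicate 3 the lowest of its group, and the mean was lowest in col-0. AT3G22910, annotated as an ATPase, had 52.5, 32.3 and 17.3 CPM in complemented, 130.4, 112 and 99.2 CPM in csld5 and 6.46, 11 and 8.19 CPM in col-0 libraries (-1.74 ± 0.28, corrected -1.52).

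CYP76C3, a cytochrome P450 that oxidises the floral scent linalool, fell (-1.79 ± 0.28, corrected -1.82), as did the oxygenase gene AT2G38240 (-1.74 ± 0.26, corrected -1.68) and the DUF1442 gene AT3G60780 (-1.83 ± 0.31, corrected -1.83). AAE11, annotated as an AMP-dependent synthetase, had 4.99, 1.35 and 1.33 CPM in complemented, 7.68, 12.4 and 13.3 CPM in csld5 and 0.185, 0.223 and 0.393 CPM in col-0 libraries (-2.12 ± 0.40, corrected -1.75). The berberine-bridge family gene AT1G01980 (-1.80 ± 0.30, corrected -1.33), the aspartyl protease gene AT5G10760 (-1.93 ± 0.14, corrected -1.75), PYD4 (-1.84 ± 0.17, corrected -1.61) and the uncharacterised AT3G23450 (-1.76 ± 0.13, corrected -1.29) completed the falls that met the naming rule.

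**Figure D3:**
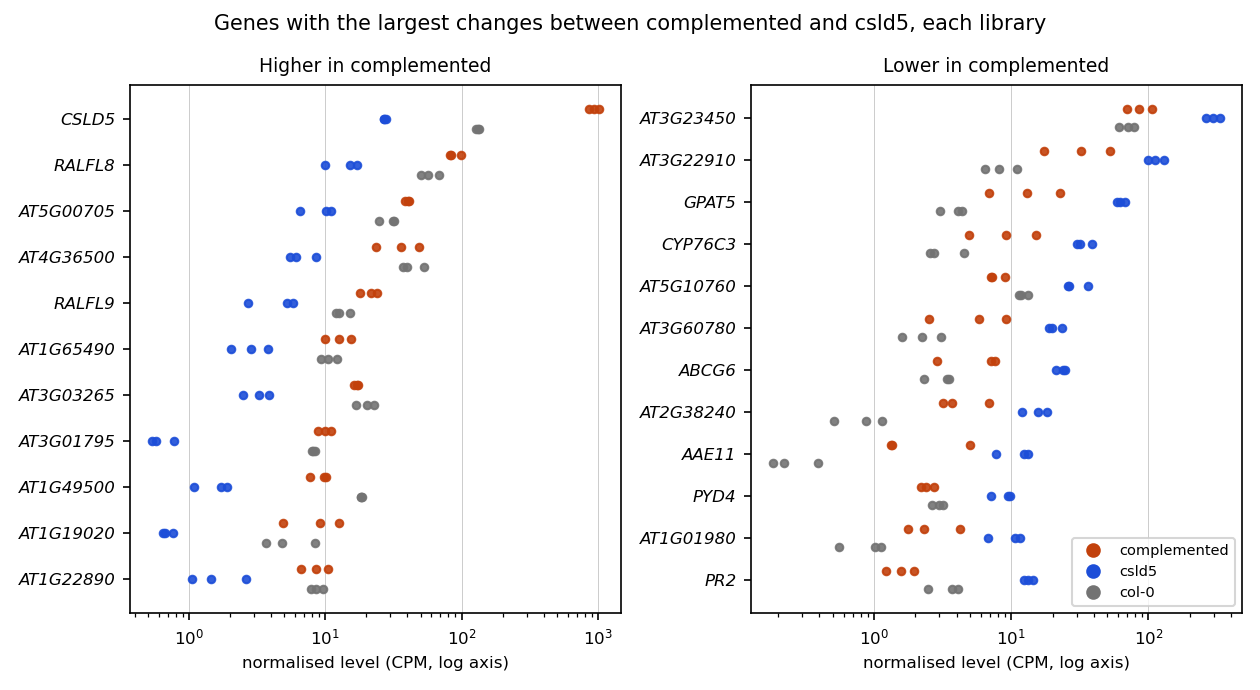
Each dot is 1 library, placed on a log axis by its normalised level in CPM, for 11 of the 12 largest rises (left) and the 12 largest falls (right) among called nuclear genes with an average log2 CPM of at least 2. Complemented (orange) and csld5 (blue) libraries do not overlap for any gene shown, since the genes were picked for that; col-0 (grey) is given beside them. AT1G75945 is left out because it had 0 reads in csld5.

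By absolute gain in CPM, which also scales with gene length, the leading nuclear genes after CSLD5 were MLP423, the metallothionein genes MT2B and MT2A, the photosystem II subunit gene PSBR, the xyloglucan enzyme gene XTH9, the cold-induced KIN2 and the ribosomal protein gene AT1G70600. XTH9 had 1466, 1461 and 1537 CPM in complemented and 1065, 1037 and 960.2 CPM in csld5 libraries (0.54 ± 0.06, corrected 0.39). AT1G70600 (0.69 ± 0.08, corrected 0.43) and PSBR (0.46 ± 0.08, corrected 0.27) remained called after the correction, whereas MLP423 (0.50 ± 0.11, corrected 0.16), MT2B (0.63 ± 0.09, corrected 0.14), MT2A (0.54 ± 0.08, corrected 0.16) and KIN2 (0.70 ± 0.12, corrected 0.16) did not. Among the leading losses, ATMS1, a methionine synthase, had 1120.4, 1166 and 1181 CPM in complemented and 1971, 2079 and 2407 CPM in csld5 libraries (-0.90 ± 0.07, corrected -0.46). RCA, the activase of Rubisco (-0.62 ± 0.07, corrected -0.31), THI1 of thiamine synthesis (-0.49 ± 0.06, corrected -0.32), the elongation factor gene AT5G60390 (-0.46 ± 0.06, corrected -0.25), the RNA-binding protein gene GRP7 (-0.45 ± 0.07, corrected -0.31) and the storage protein gene VSP1 (-0.38 ± 0.09, corrected -0.38) also fell. LHCB1.3, a light-harvesting gene with near-identical copies, fell (-0.40 ± 0.06, corrected -0.12), a call the correction ended.

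Gene lists were then read against the shares over all tested genes, 19.8% higher and 21.1% lower, with a median of 0.02. Scaling by library totals turned the sign of the small medians of the lists for cortical microtubules, auxin response, gibberellin, brassinosteroid, heat shock and phosphate starvation. Tubulins, the subunits of the microtubules that guide cellulose synthase, were lower without exception: 15 of 15 fell and 0 rose, with a median log2 fold change of -0.58. TUA2 (chr1:18517586-18520000) had 380.4, 379 and 374 CPM in complemented, 612, 630.3 and 635 CPM in csld5 and 399, 395 and 399 CPM in col-0 libraries. The groups were far apart relative to the spread within them (-0.73 ± 0.05, edgeR adjusted p = 1.1e-06). TUB1 had 18.8, 18.9 and 18.3 CPM in complemented and 31.2, 34.5 and 35.9 CPM in csld5 libraries (-0.86 ± 0.09), the largest fall in the list, and TUA6 (-0.63 ± 0.05), TUA4 (-0.60 ± 0.05) and TUB2 (-0.59 ± 0.05) were close to the median. After the correction 15 were still lower, with a median of -0.35, and these 5 ranged from -0.65 (TUB1) to -0.31 (TUB2). Reads of tubulin genes with near-identical copies may be split between them. Of 24 genes for the organisation of cortical microtubules 7 fell and 2 rose (corrected 8 and 2), with a median of -0.10, or 0.00 with library totals. Without csld5 replicate 3 and without the correction 8 fell and 0 rose. Among the falls were MOR1, which promotes microtubule growth (-0.52 ± 0.08, corrected -0.22), and TRM1 (-0.47 ± 0.08, corrected -0.24).

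Genes for making the wall fell together. In the list of cellulose synthase subunits and partners 13 of 14 fell and 0 rose, with a median of -0.48, and 10 fell after the correction. CSI1, which links the synthase complex to microtubules, had 95.9, 107 and 125 CPM in complemented and 172, 190.0 and 228 CPM in csld5 libraries (-0.85 ± 0.10, corrected -0.42). CESA6, a primary wall subunit, had 196 ± 6.52 CPM in complemented and 282 ± 19.2 CPM in csld5 libraries (-0.53 ± 0.07, corrected -0.29). The secondary wall subunits CESA7 (-0.91 ± 0.13, corrected -0.54) and CESA8 (-0.76 ± 0.10, corrected -0.61) fell too. Among 19 other cellulose synthase-like genes besides CSLD5, 12 fell and 0 rose (corrected 8 and 1, or 11 and 1 without csld5 replicate 3 and without the correction). The falls included CSLA2 and CSLA9, which make mannan (-0.45 ± 0.06, corrected -0.44 for CSLA2 and -0.47 ± 0.06, corrected -0.50 for CSLA9). CSLC6 of the family that makes the xyloglucan backbone (-0.51 ± 0.06, corrected -0.26) and CSLG3 (-0.51 ± 0.07, corrected -0.40) fell too.

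The nearest relatives of CSLD5 did not rise. CSLD2 had 35.5 ± 0.218 CPM in complemented and 47.8 ± 5.42 CPM in csld5 libraries, and CSLD3 35.7 ± 1.73 CPM in complemented and 43.4 ± 3.51 CPM in csld5 libraries. Both were called lower (-0.43 and -0.28), but not after the correction (-0.09 and 0.07). CSLD4, a pollen-tube gene, had 4.2, 2.97 and 3.35 CPM in complemented, 5.46, 11.8 and 9.5 CPM in csld5 and 2.57, 3.1 and 2.02 CPM in col-0 libraries (-1.34 ± 0.25, corrected -0.88). CSLD1, also a pollen-tube gene, had 3.6, 2.47 and 1.95 CPM in complemented and 2.28, 7.77 and 4.18 CPM in csld5 libraries and did not pass the test (edgeR adjusted p = 0.086), although it did without csld5 replicate 1 (-1.17). CSLD6 was at 4.41 ± 0.823 CPM in complemented and 5.72 ± 0.938 CPM in csld5 libraries and did not pass either (edgeR adjusted p = 0.096).

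Of 28 genes of xylan and lignin, the polymers of secondary walls, 18 fell and 0 rose (median -0.43, with 16 lower and 1 higher after the correction). LAC17, a laccase that polymerises lignin, had 19.9, 23.6 and 19 CPM in complemented, 42.4, 42.4 and 40 CPM in csld5 and 27.9, 18 and 25.3 CPM in col-0 libraries (-0.998 ± 0.13, corrected -0.78). PAL1 and 4CL1, at the entry of the phenylpropanoid pathway, fell (-0.60 ± 0.07, corrected -0.37 for PAL1 and -0.73 ± 0.08, corrected -0.50 for 4CL1), as did PARVUS, needed for xylan synthesis (-0.74 ± 0.09, corrected -0.59). Of 32 markers of procambium, xylem and phloem 8 fell and 2 rose (corrected 5 and 2), with summed levels of 585 to 591 CPM in complemented and 602 to 705 CPM in csld5 libraries, which do not overlap and lie within 1.5 times of each other. Their part in the fall of xylan and lignin genes was not tested. Of 11 xyloglucan and mannan side-chain genes, 7 fell and 0 rose, but 2 were lower after the correction. XLT2, a galactosyltransferase of xyloglucan, fell (-0.51 ± 0.09, corrected -0.30).

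Wall remodelling genes were divided. Of 18 expansins, which loosen walls, 11 fell and 1 rose (median -0.32, 9 lower after the correction). EXPA8 (chr2:16948791-16950705) had 41.3, 36.9 and 30.9 CPM in complemented, 85.8, 89 and 78.1 CPM in csld5 and 29, 28 and 32.3 CPM in col-0 libraries, without overlap between the first pair (-1.21 ± 0.09, corrected -1.21). EXPB3 (-0.61 ± 0.06, corrected -0.48), EXPA3 (-0.66 ± 0.08, corrected -0.53) and EXLA2 (-0.75 ± 0.08, corrected -0.63) fell with it, and EXPA16 was the member that rose, from a low level (3.67 ± 0.846 CPM in complemented and 1.32 ± 0.425 CPM in csld5 libraries, 1.47 ± 0.24, corrected 1.58). Of 22 XTH genes, whose enzymes cut and rejoin xyloglucan, 7 rose and 4 fell (corrected 3 and 5), with XTH3 at 332 ± 13.5 CPM in complemented and 203 ± 27.2 CPM in csld5 libraries (0.71 ± 0.10, corrected 0.40) and XTH18 (1.88 ± 0.32, corrected 1.65).

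Of 15 pectin methylesterases and their inhibitors, 3 rose and 7 fell (corrected 3 and 6), with PME5, which is active in meristems, lower (-0.49 ± 0.07, corrected -0.32), while PME41 rose (0.62 ± 0.13, corrected 0.76). Of 22 pectin synthesis and degradation genes, 9 fell and 0 rose, but the corrected counts were 4 lower and 2 higher. GAE2, which makes the pectin precursor UDP-galacturonate, fell (-0.99 ± 0.11, corrected -0.62). Of 34 arabinogalactan protein genes, 7 rose and 14 fell (corrected 4 and 16), with AGP12 higher (0.93 ± 0.11, corrected 0.31), and AGP9 (-0.57 ± 0.07, corrected -0.45) and FLA2 (-0.51 ± 0.07, corrected -0.18) lower. WAK1, a receptor kinase bound to pectin, fell (-0.54 ± 0.08, corrected -0.33).

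Of 15 HD-ZIP IV and epidermal identity genes, 1 rose and 5 fell (corrected 1 and 2), with ANL2 (-0.59 ± 0.07, corrected -0.17) and DEK1 (-0.60 ± 0.11, corrected -0.25) among the falls. Of 23 cutin genes, 14 fell and 1 rose, but 6 were lower and 1 higher after the correction. GPAT6, an acyltransferase of cutin synthesis, had 166, 179 and 180.3 CPM in complemented, 379, 303 and 359.5 CPM in csld5 and 134, 142 and 189.8 CPM in col-0 libraries (-0.99 ± 0.11, corrected -0.63), and ABCG11, the cuticle lipid transporter, fell (-0.46 ± 0.06, corrected -0.27). Of 21 wax genes, 9 fell and 4 rose (corrected 8 and 3), among the falls CER1 (-0.60 ± 0.08, corrected -0.46), CER2 (-0.79 ± 0.11, corrected -0.62) and CER3 (-0.41 ± 0.06, corrected -0.36), while WSD1, which makes wax esters, rose (0.53 ± 0.08, corrected 0.25). Of 11 suberin genes, 4 fell and 1 rose (corrected 3 and 1). Besides GPAT5 and ABCG6, the transporter gene ABCG20 had 21.5, 20.3 and 13.1 CPM in complemented and 46.6, 44.7 and 43.9 CPM in csld5 libraries (-1.305 ± 0.13, corrected -1.01), while FAR1, a fatty alcohol-forming reductase, rose (0.49 ± 0.11, corrected 0.37).

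**Figure D4:**
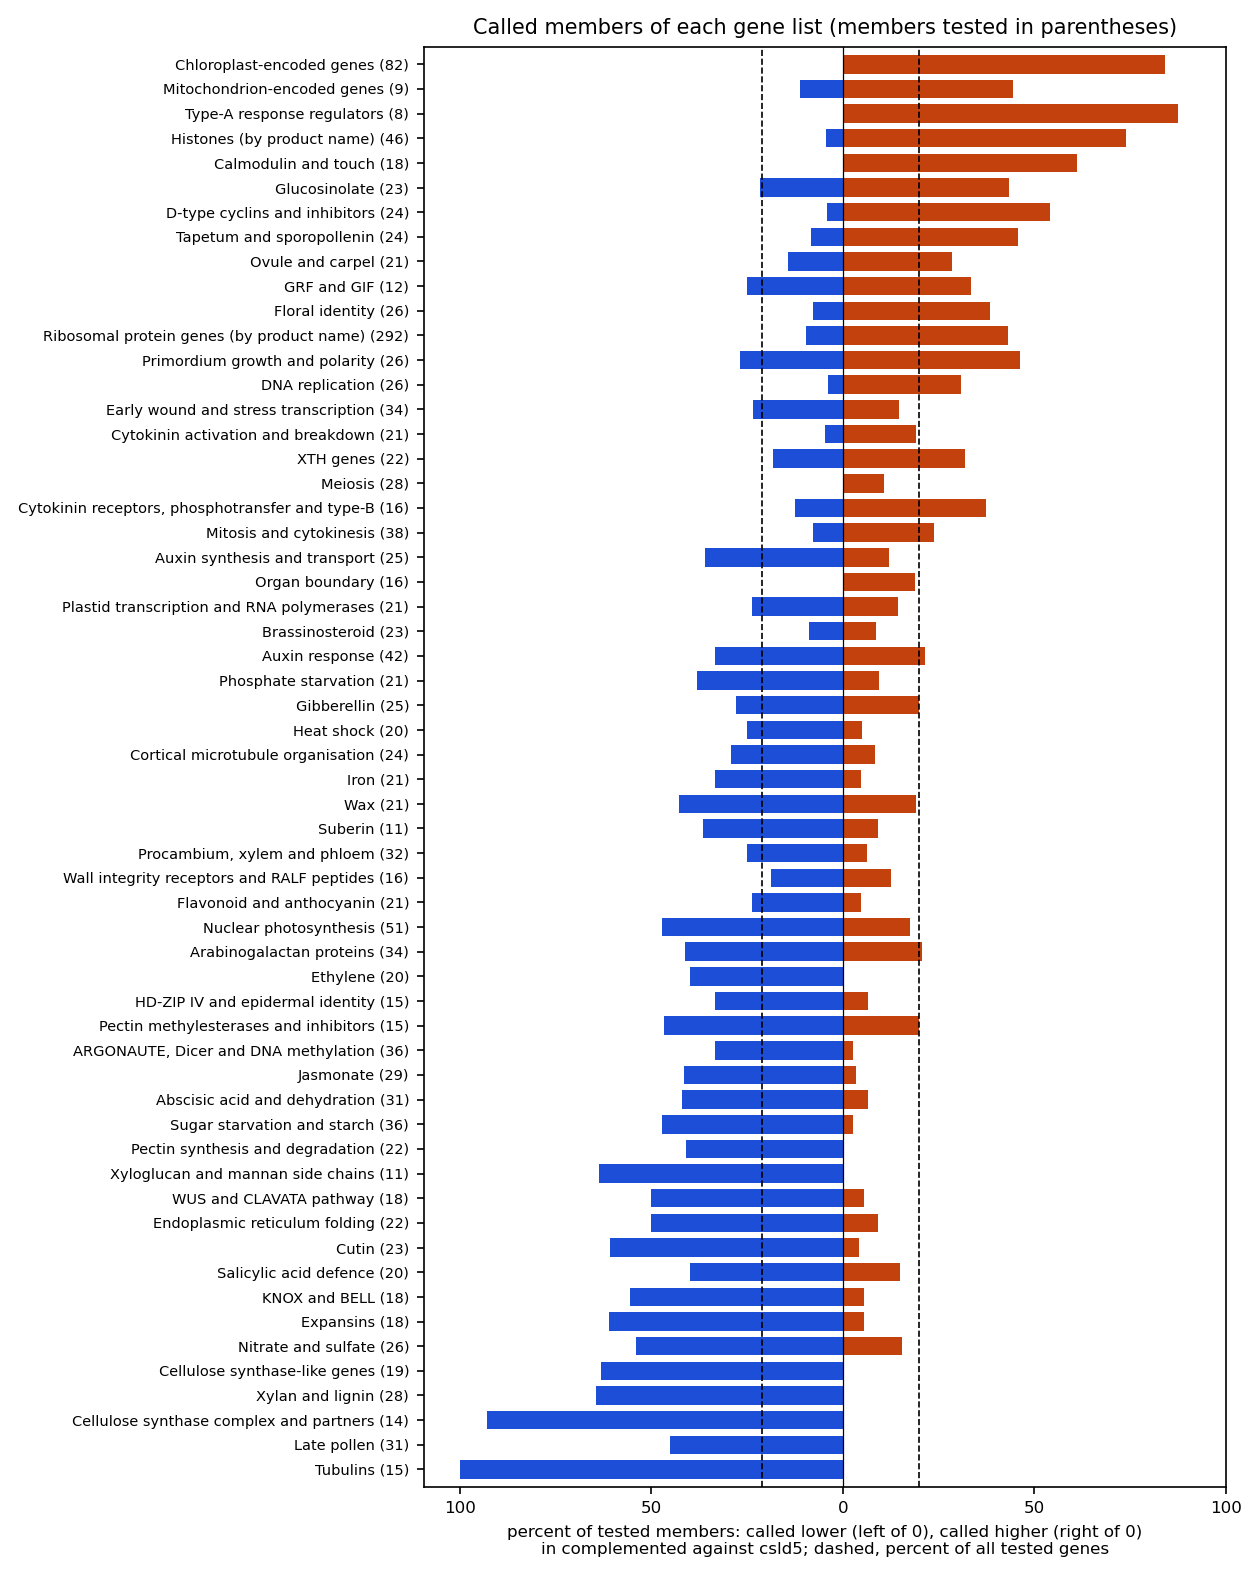
For each of 58 gene lists, ordered by the median log2 fold change of its tested members, bars give the percent of tested members called higher (right of 0) and lower (left of 0) in complemented than in csld5 libraries. The dashed lines mark the shares over all tested genes, 19.8% and 21.1%. Tubulins, late pollen genes and wall synthesis lists stand at the bottom, chloroplast- and mitochondrion-encoded genes, type-A response regulators and histones at the top.

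In the WUS and CLAVATA list 9 of 18 members fell and 1 rose, but after the correction 2 were lower and 5 higher, so its direction depended on that step. WUS, which specifies the niche, had 14.6, 16.3 and 19.4 CPM in complemented, 29.3, 20.5 and 20.9 CPM in csld5 and 14.1, 13.6 and 19.4 CPM in col-0 libraries. The complemented libraries lay below the csld5 libraries, by a margin smaller than the spread within either group. Its log2 fold change of -0.49 ± 0.16 passed the test (edgeR adjusted p = 0.025), but not after the correction (-0.47, adjusted p = 0.052), not with library totals (-0.39), and not without complemented replicate 1 (-0.40) or 2 (-0.47) or csld5 replicate 1 (-0.31). HAM3, a partner of WUS, fell more clearly, at 11.9 ± 0.881 CPM in complemented and 21.6 ± 2.32 CPM in csld5 libraries (-0.86 ± 0.10, corrected -0.40). The receptor kinase gene BAM1 fell as well (-0.50 ± 0.09, corrected -0.18), and CRN, a membrane pseudokinase of CLAVATA signalling, rose (0.46 ± 0.09, corrected 0.48).

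Of 18 KNOX and BELL homeobox genes, 10 fell and 1 rose (corrected 8 lower and 1 higher). STM had 51.8, 45.9 and 50.5 CPM in complemented, 59.8, 61 and 60.5 CPM in csld5 and 55, 52 and 53.2 CPM in col-0 libraries (-0.29 ± 0.06, corrected -0.22). Every complemented library lay below every csld5 library and below the lowest col-0 library. BLH1 (-0.61 ± 0.07, corrected -0.37) and KNAT3 (-0.50 ± 0.07, corrected -0.32) fell, and ATH1, a BELL gene of the meristem and organ boundary, rose (0.53 ± 0.07, corrected 0.31).

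Of 26 genes of organ growth and polarity, 12 rose and 7 fell, with 6 higher and 4 lower after the correction. ANT, which drives organ growth, had 87.2, 88.4 and 80.8 CPM in complemented, 62.6, 64.8 and 66.4 CPM in csld5 and 99.5, 98 and 90.3 CPM in col-0 libraries, and its rise was as large after the correction (0.40 ± 0.06, corrected 0.50). FIL, which marks the lower side of organs, had 70.1 ± 3.62 CPM in complemented and 46.2 ± 6.16 CPM in csld5 libraries (0.60 ± 0.08, corrected 0.45). The class III homeodomain genes, of which PHV, PHB and REV set the upper side, fell: PHV (-0.60 ± 0.07, corrected -0.25), HB-8 (-0.65 ± 0.09, corrected -0.28) and, named after their values were seen, REV (-0.38 ± 0.06, corrected -0.15), PHB (-0.43 ± 0.08, corrected -0.04) and ATHB-15 (-0.40 ± 0.08, corrected -0.17). The correction ended the calls of PHB and ATHB-15. ZPR4 and ZPR1, which encode little zipper proteins that bind and block the same factors, were called higher (0.99 ± 0.17, corrected 0.13 for ZPR4 and 0.66 ± 0.14, corrected -0.08 for ZPR1), but not after the correction. ZPR1 was named after its values were seen. Of 12 GRF and GIF growth regulators, 4 rose and 3 fell (corrected 3 and 1), with GRF5 at 35.8 ± 1.19 CPM in complemented and 21.6 ± 2 CPM in csld5 libraries (0.72 ± 0.09, corrected 0.69).

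Of 16 organ boundary genes 3 rose and 0 fell (corrected 3 and 1). Of 26 floral identity genes, 10 rose and 2 fell, but 5 were higher and 5 lower after the correction. SPL4, a flowering regulator (0.64 ± 0.07, corrected 0.44), FUL (0.56 ± 0.06, corrected 0.31), the ovule gene STK (0.51 ± 0.06, corrected 0.21) and SEP1 (0.43 ± 0.06, corrected 0.27) rose.

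Type-A response regulators are induced by cytokinin and dampen its signal. Of 8 tested, 7 rose and 0 fell, with a median of 0.67; after the correction 5 were higher, with a median of 0.28. ARR7 had 36.6, 32.2 and 38.5 CPM in complemented, 15.3, 20.070 and 15.7 CPM in csld5 and 37.7, 37.5 and 37.8 CPM in col-0 libraries (1.07 ± 0.10, corrected 0.67). The complemented and col-0 libraries overlapped and csld5 lay below both. ARR16 had 41, 42.4 and 35.5 CPM in complemented and 24.9, 22.4 and 18.235 CPM in csld5 libraries (0.86 ± 0.12, corrected 0.53), ARR5 rose (0.71 ± 0.10, corrected 0.32), and ARR9 (0.63 ± 0.08, corrected 0.17) was not called after the correction. In a list of 16 receptors, phosphotransfer proteins and type-B regulators upstream of them, 6 rose and 2 fell (corrected 1 and 2). The falls were the receptor AHK3 (-0.38 ± 0.06, corrected -0.18) and the type-B activator ARR1 (-0.48 ± 0.06, corrected -0.26). The largest change was a rise of AHP6, which encodes an inhibitory pseudo-phosphotransfer protein (1.26 ± 0.35, corrected 0.93). It was not called after the correction. AHP6 was at a low level, 0.876 ± 0.0536 CPM in complemented and 0.364 ± 0.0605 CPM in csld5 libraries. LOG1 and LOG8, enzymes that release active cytokinin, rose (0.98 ± 0.09, corrected 0.40 for LOG1 and 0.67 ± 0.09, corrected 0.51 for LOG8), among 21 activation and breakdown genes of which 4 rose and 1 fell (corrected 2 and 0).

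Of 25 auxin synthesis and transport genes, 9 fell and 3 rose, though 6 were lower and 6 higher after the correction. Without csld5 replicate 3 and without the correction 8 were lower and 1 higher. The median (0.03) and mean (-0.04) differ in sign. Of the carriers, PIN3 had 31.4, 24.1 and 20.191 CPM in complemented and 43.3, 46.5 and 54 CPM in csld5 libraries (-0.93 ± 0.13, corrected -0.57), and PIN7 (-0.51 ± 0.05, corrected -0.45) and AUX1 (-0.49 ± 0.07, corrected -0.45) fell as well. In the auxin response list 9 of 42 rose and 14 fell (corrected 4 and 9), with a median of -0.01 and a mean of 0.03, including IAA4 (0.75 ± 0.08, corrected 0.29) and ARF16 (-0.60 ± 0.07, corrected -0.39). Among 25 gibberellin genes 5 rose and 7 fell (corrected 4 and 7), the DELLA repressors RGL2 (-0.67 ± 0.06, corrected -0.36) and RGL3 (-0.96 ± 0.15, corrected -0.54) lower and GA2OX8, which inactivates gibberellin, higher (1.22 ± 0.21, corrected 0.99). Of 23 brassinosteroid genes, 2 rose and 2 fell (corrected 0 and 4). Without csld5 replicate 3 and without the correction the counts were 0 and 3. The receptor BRI1 (-0.52 ± 0.08, corrected -0.23) and the enzyme CPD (-0.62 ± 0.07, corrected -0.39) were lower. Of 20 ethylene genes, 8 fell and 0 rose, with 4 lower and 2 higher after the correction (EBF1 -0.47 ± 0.06, corrected -0.20).

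In stress hormone lists more members fell than rose. In the jasmonate list 12 of 29 fell and 1 rose (median -0.17), and 14 fell after the correction (median -0.27). LOX2, which starts jasmonate synthesis, had 970.0, 1014 and 945 CPM in complemented, 1768, 1427 and 1672 CPM in csld5 and 829, 788 and 961 CPM in col-0 libraries (-0.73 ± 0.09, corrected -0.49). Of 31 abscisic acid and dehydration genes, 13 fell and 2 rose, with the same counts after the correction. NCED4, a carotenoid cleavage dioxygenase, fell (-1.005 ± 0.10, corrected -0.71), and the dehydration genes RD22 (-0.76 ± 0.09, corrected -0.51) and COR47 (-0.65 ± 0.09, corrected -0.81) fell too.

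Histone genes were taken from the product names of the annotation. Of 46 tested, 34 rose and 2 fell, with a median of 0.51; after the correction 19 were higher and 0 lower, with a median of 0.17. AT2G37470, annotated as a histone, had 147, 143 and 132 CPM in complemented, 69.4, 67.9 and 54.7 CPM in csld5 and 138, 136 and 125 CPM in col-0 libraries (1.14 ± 0.08, corrected 0.80, edgeR adjusted p = 2e-06). AT3G27360 had 18.212, 17.599 and 17.573 CPM in complemented and 8.32, 7.07 and 6.58 CPM in csld5 libraries (1.28 ± 0.09, corrected 0.75). HTB11, an H2B gene (0.91 ± 0.07, corrected 0.44), AT3G46320 (0.90 ± 0.08, corrected 0.40) and AT3G09480 (1.299 ± 0.18, corrected 0.87) followed. Within the csld5 group replicate 3 was the lowest for each of these 5, and without it 31 of the histone genes were higher. Histone genes have close copies, and reads may be split between them.

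Plant histone promoters are known for an octamer element, CGCGGATC, and for an element with the letters CCACGTCA. In the 250 bases before the annotated start, the octamer or its reverse complement GATCCGCG was found for 9 of 46 tested histone genes (19.6%), against 31 of 22579 tested genes with such a window (0.137%). CCACGTCA or its reverse complement TGACGTGG was found for 6 of the 46 (13%), against 317 of the 22579 (1.4%). Of the 34 histone genes called higher, 12 held either element (35.3%), and of the 12 not called higher, 2 did (16.7%). Several of the genes not called higher had positive estimates that did not pass the test, such as HTA4 (1.76) and AT1G13370 (0.71). A link between element and rise was not tested. The windows of 4 genes that rose are shown because they hold the elements and no other annotated gene, those with the most copies first and then by fold change. They were read 5′ to 3′ on the gene's strand from the RefSeq TAIR10.1 genome, end at the base before the gene's start, and have the elements in capitals. A match describes these letters and is not evidence of binding.
AT5G10400 (chr5:3270958-3271207, minus strand): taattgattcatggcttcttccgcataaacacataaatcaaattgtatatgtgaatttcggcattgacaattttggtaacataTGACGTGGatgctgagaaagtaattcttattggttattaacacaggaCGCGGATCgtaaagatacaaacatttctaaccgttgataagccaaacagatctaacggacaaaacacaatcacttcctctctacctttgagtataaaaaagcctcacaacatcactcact
AT1G09200 (chr1:2972335-2972584, minus strand): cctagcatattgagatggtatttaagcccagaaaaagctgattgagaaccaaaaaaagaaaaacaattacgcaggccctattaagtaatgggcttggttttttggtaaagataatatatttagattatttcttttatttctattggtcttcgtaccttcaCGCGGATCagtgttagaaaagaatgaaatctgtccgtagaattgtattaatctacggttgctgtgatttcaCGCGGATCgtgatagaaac
HTA10 (chr1:18926561-18926810, plus strand): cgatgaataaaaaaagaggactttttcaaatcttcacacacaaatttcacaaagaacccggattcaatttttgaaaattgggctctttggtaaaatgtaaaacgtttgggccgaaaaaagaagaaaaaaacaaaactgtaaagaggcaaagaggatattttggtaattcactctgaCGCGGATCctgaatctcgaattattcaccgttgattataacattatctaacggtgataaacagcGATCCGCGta
AT2G37470 (chr2:15736477-15736726, plus strand): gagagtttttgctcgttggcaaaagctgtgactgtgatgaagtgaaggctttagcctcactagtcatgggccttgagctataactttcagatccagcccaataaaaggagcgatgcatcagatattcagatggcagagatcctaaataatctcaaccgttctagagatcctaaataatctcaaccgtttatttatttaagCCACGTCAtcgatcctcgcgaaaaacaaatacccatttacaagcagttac
AT5G10400, which holds 1 copy of each element, had 205, 208 and 193 CPM in complemented and 140.5, 122 and 106 CPM in csld5 libraries (0.71 ± 0.09, corrected 0.49). AT1G09200, with 2 octamers, had 232, 238 and 226 CPM in complemented and 164, 167 and 140.4 CPM in csld5 libraries (0.56 ± 0.06, corrected 0.29). HTA10, an H2A gene that also holds 2 octamers, had 229, 232 and 213 CPM in complemented and 169, 159 and 139 CPM in csld5 libraries, a rise that the correction ended (0.53 ± 0.07, corrected 0.10).

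In a list of 24 D-type cyclins, cell cycle inhibitors and the regulators RBR1, E2F1, E2F3, DEL1 and DEL2, 13 rose and 1 fell (median 0.32). After the correction 8 rose and 0 fell. The fall was E2F1 (-0.32), and DEL1 (0.46) and DEL2 (0.32) were among the rises. SMR4, an inhibitor of cyclin-dependent kinases, had 5.42, 5.1 and 4.59 CPM in complemented, 1.67, 1.22 and 1.16 CPM in csld5 and 4.26, 4.99 and 2.83 CPM in col-0 libraries (1.90 ± 0.23, corrected 1.303). CYCD3;3 had 62.8 ± 1.37 CPM in complemented and 44.6 ± 4.44 CPM in csld5 libraries (0.49 ± 0.08, corrected 0.30). SIM (0.89 ± 0.23, corrected 0.50) and KRP3 (0.54 ± 0.11, corrected 0.45), inhibitors named after their values were seen, rose as well, a call the correction ended for SIM. Of 26 DNA replication genes, 8 rose and 1 fell (10 and 0 after the correction), among the rises the licensing factor CDT1A (0.30 ± 0.06, corrected 0.35) and the chromatin assembly subunit FAS1 (0.33 ± 0.06, corrected 0.33). The 38 genes of mitosis and cytokinesis included 9 that rose and 3 that fell (corrected 6 and 1), with CYCB2;3 (0.52 ± 0.07, corrected 0.44) and CYCA1;1 (0.40 ± 0.06, corrected 0.24) higher. Of 28 meiosis genes, 3 rose and 0 fell (corrected 5 and 0), among them MND1 (0.55 ± 0.09, corrected 0.37) and DMC1 (0.29 ± 0.07, corrected 0.22).

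**Figure D5:**
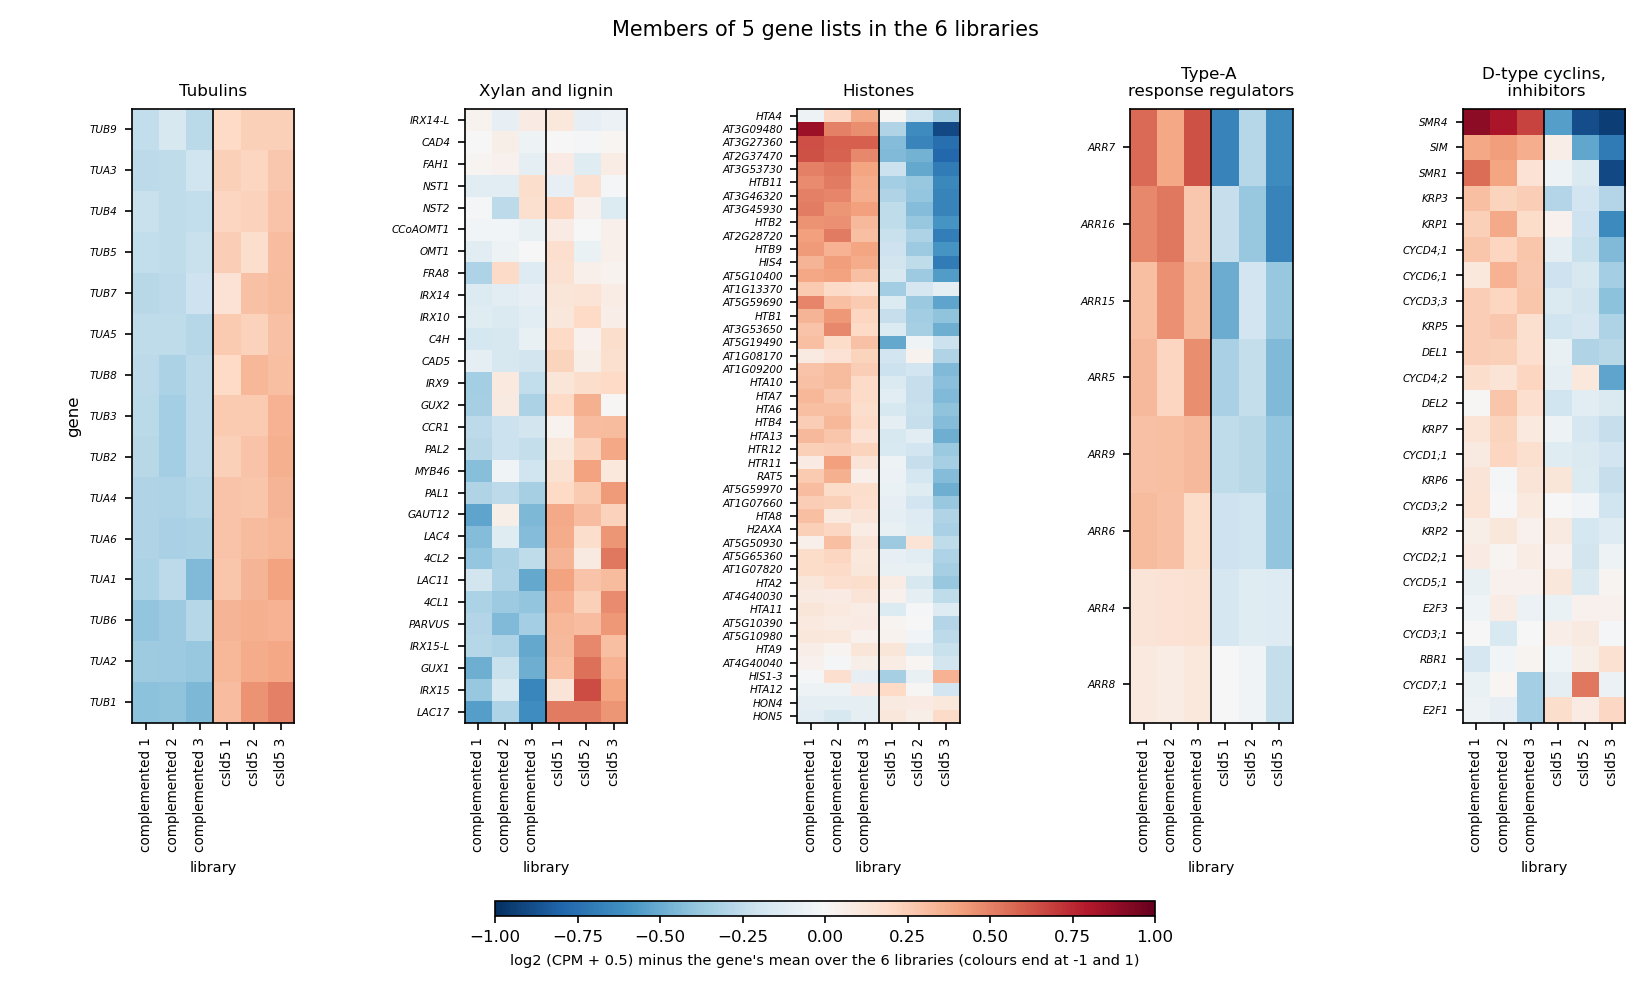
Columns are the 6 libraries, complemented on the left, and rows are the tested members of 5 gene lists ordered by fold change. Colours give log2 (CPM + 0.5) minus the gene's mean over the 6 libraries. All 15 tubulins are lower in each complemented library, most histones and type-A response regulators are higher, and csld5 replicate 3 has the deepest blue among the histones.

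Of 36 small RNA and DNA methylation genes, 12 fell and 1 rose, but 3 were lower and 5 higher after the correction, and the median turned to 0.07 from -0.17. AGO1 had 294 ± 12.3 CPM in complemented and 440.1 ± 43.3 CPM in csld5 libraries (-0.58 ± 0.07, corrected -0.20) and AGO2 fell (-0.61 ± 0.08, corrected -0.24). Ribosomal protein genes, also taken by product name, also turned: 126 of 292 rose and 28 fell, whereas 39 rose and 66 fell after the correction. AT4G26230 (1.13 ± 0.10, corrected 0.71) and AT3G44010 (1.01 ± 0.09, corrected 0.49) were higher and RPS5A was lower, at 406 ± 12.3 CPM in complemented and 639 ± 24.7 CPM in csld5 libraries (-0.65 ± 0.05, corrected -0.70), under both fits.

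Transcripts encoded in the chloroplast were higher in 69 and lower in 0 of 82 cases, with a median of 2.18. They summed to 241 to 322 CPM in complemented, 76.2 to 86 CPM in csld5 and 209.7 to 263 CPM in col-0 libraries, and took 0.0247% to 0.0329% of the counts in complemented and 0.00734% to 0.00815% in csld5 libraries. ATCG01020 had 24.4, 22.8 and 23.1 CPM in complemented and 2.23, 1.87 and 1.62 CPM in csld5 libraries (3.62 ± 0.12), and ATCG00220 5.37, 3.91 and 5.41 CPM in complemented and 0.0835, 0.0542 and 0.027 CPM in csld5 libraries, on 641 and 6 reads. Such transcripts are mostly not polyadenylated, and how the libraries selected RNA is not given in the sources used here. Of transcripts of the mitochondrion, 4 of 9 rose and 1 fell (median 1.02), and ATMG01390 had 162, 149 and 205 CPM in complemented and 300.0, 269.7 and 288 CPM in csld5 libraries (-0.73 ± 0.10). All listed mitochondrial transcripts summed to 302 to 419 CPM in complemented, 418 to 493 CPM in csld5 and 238 to 275 CPM in col-0 libraries, so their summed level did not rise. Of 51 nuclear genes of photosynthesis, 24 fell and 9 rose (corrected 16 and 3). LHCB4.1, a light-harvesting protein, had 842 ± 29 CPM in complemented and 1364 ± 17.1 CPM in csld5 libraries (-0.70 ± 0.05, corrected -0.36), PSBO1 of the oxygen-evolving complex fell (-0.59 ± 0.05, corrected -0.29), and PSAG of photosystem I rose (0.76 ± 0.11, corrected 0.50). Of 21 plastid transcription genes 3 rose and 5 fell, PTAC7 (0.72 ± 0.10, corrected 0.34) among the rises, and after the correction 6 were higher and 0 lower.

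Of 18 calmodulin and touch genes, 11 rose and 0 fell (6 and 2 after the correction). TCH2, a calmodulin-like gene induced by touch, had 54.8, 48.6 and 52.6 CPM in complemented, 24.3, 22.5 and 19.7 CPM in csld5 and 63.7, 62.5 and 67.3 CPM in col-0 libraries (1.23 ± 0.08, corrected 1.03, edgeR adjusted p = 9.4e-07). CML38 (7.26, 2.55 and 8.22 CPM in complemented and 1.5, 1.68 and 1.13 CPM in csld5 libraries, 2.07 ± 0.35, corrected 1.41) varied more, and CAM9 rose (0.72 ± 0.11, corrected 0.30). Of 34 early wound and stress regulators, 5 rose and 8 fell (corrected 6 and 7), and without csld5 replicate 3 the counts were 4 and 3. ERF11 had 2.79, 1.87 and 5.13 CPM in complemented and 0.78, 0.758 and 0.593 CPM in csld5 libraries (2.204 ± 0.35, corrected 1.74), and WRKY53 10.2, 6.33 and 17.2 CPM in complemented and 3.76, 3.52 and 3.97 CPM in csld5 libraries (1.59 ± 0.28, corrected 1.55). In both, complemented replicate 2 was the lowest and replicate 3 the highest of the group, as in CML38, AT1G19020 and AT4G36500. WRKY22 rose (1.02 ± 0.19, corrected 1.09) and ERF4 fell (-0.48 ± 0.07, corrected -0.29).

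Of 20 salicylic acid defence genes, 8 fell and 3 rose (corrected 7 and 1). PR5 had 9.53, 8.8 and 8.07 CPM in complemented and 20.8, 22.9 and 24.5 CPM in csld5 libraries (-1.37 ± 0.14, corrected -1.21), and EDS5, the transporter that supplies the precursor of salicylic acid, fell (-0.94 ± 0.15, corrected -0.80). Of 22 endoplasmic reticulum folding genes, 11 fell and 2 rose (corrected 8 and 2), with the chaperones BIP1 and BIP2, near-identical copies, lower (-0.54 ± 0.06, corrected -0.29 for BIP1 and -0.54 ± 0.08, corrected -0.23 for BIP2). Of 20 heat shock genes, 1 rose and 5 fell (corrected 3 and 2), HSP81-2 (-0.46 ± 0.06, corrected -0.22) among the falls.

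Of 26 nitrate and sulfate genes 14 fell and 4 rose (median -0.33, corrected counts 15 and 4). ASN1, an asparagine synthase, had 109, 96.3 and 89 CPM in complemented, 265, 251 and 251 CPM in csld5 and 82.2, 86.5 and 81.2 CPM in col-0 libraries, a difference many times the spread within groups (-1.38 ± 0.07, corrected -1.21, edgeR adjusted p = 2e-07). The nitrate transporters NRT1.5 (-1.17 ± 0.14, corrected -0.92) and NRT1.1 (-0.69 ± 0.10, corrected -0.35) fell, and LBD37, a repressor of nitrate-responsive genes, rose (0.61 ± 0.07, corrected 0.54). SUS1, a sucrose synthase, had 90.2, 82.5 and 87.2 CPM in complemented, 190.0, 177 and 202 CPM in csld5 and 67.9, 72.5 and 82.2 CPM in col-0 libraries (-1.13 ± 0.08, corrected -1.01). It belongs to a list of 36 sugar and starch genes of which 17 fell and 1 rose (corrected 11 and 0), with SEX1 of starch breakdown lower (-0.56 ± 0.08, corrected -0.29). Of 21 phosphate starvation genes, 8 fell and 2 rose (corrected 9 and 1), among the falls PHO2 (-0.83 ± 0.07, corrected -0.52) and the phosphate transporter PHT1;4 (-1.78 ± 0.30, corrected -1.47). Of 21 iron genes, 7 fell and 1 rose (corrected 6 and 1), the ferritin FER1 (-0.51 ± 0.06, corrected -0.40), the vacuolar iron transporter-like VTL1 (-1.03 ± 0.18, corrected -1.09) and the ferric reductase FRO2 (-1.05 ± 0.22, corrected -0.92) among them.

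Glucosinolate genes went both ways: 10 of 23 rose and 5 fell (corrected 11 and 3), and without csld5 replicate 3 the counts were 5 and 4. Their summed level was lower in complemented (2785 to 2882 CPM) than in csld5 libraries (3318 to 3887 CPM), with col-0 at 2945 to 3256 CPM. MYB29, an activator of the aliphatic branch, had 1.57, 1.09 and 1.67 CPM in complemented, 0.445, 0.488 and 0.701 CPM in csld5 and 2.04, 2.36 and 2.52 CPM in col-0 libraries (1.41 ± 0.29, corrected 1.25). Named after their values were seen, the genes for aliphatic side chains and core structures BCAT4 (1.25 ± 0.34, corrected 1.18), MAM1 (0.75 ± 0.21, corrected 0.81), IMD1 (0.69 ± 0.17, corrected 0.72), IPMI2 (0.76 ± 0.21, corrected 0.78) and CYP79F1 (0.88 ± 0.28, corrected 0.85) rose with it. Without csld5 replicate 3 the calls of BCAT4 (1.01), MAM1 (0.64), IPMI2 (0.64) and CYP79F1 (0.68) were lost. They were also lost without complemented replicate 2 for IPMI2 (0.61) and CYP79F1 (0.80), without complemented replicate 3 for MAM1 (0.57) and CYP79F1 (0.71), and without csld5 replicate 2 for CYP79F1 (0.88). TGG2, a myrosinase that cleaves glucosinolates, fell to 1330.3 ± 29.6 CPM in complemented, against 1830.2 ± 165 CPM in csld5 libraries (-0.46 ± 0.07, corrected -0.27), and SOT16, a sulfotransferase that completes indolic glucosinolates, fell (-0.44 ± 0.08, corrected -0.45). Of 21 flavonoid genes, 5 fell and 1 rose (corrected 4 and 1), the chalcone synthase gene TT4 (-0.66 ± 0.08, corrected -0.25) among the falls, whereas MYBL2, a repressor of anthocyanin, rose (0.95 ± 0.12, corrected 0.73).

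Markers of cell types outside the meristem also differed. Of 31 late pollen genes, 14 fell and 0 rose (median -0.57), with the same counts after the correction. They summed to 589.8 to 700.5 CPM in complemented, 733 to 1153 CPM in csld5 and 432 to 629 CPM in col-0 libraries, and the gap between complemented and csld5 libraries was smaller than the spread among the csld5 libraries. VGDH1, a pollen pectin methylesterase, had 42.4, 35.4 and 32.9 CPM in complemented and 61.6, 105 and 83 CPM in csld5 libraries (-1.17 ± 0.19, corrected -0.89), the calcium pump gene ACA9 fell (-0.86 ± 0.11, corrected -0.71), and so did the sucrose carrier gene SUC1 (-0.55 ± 0.10, corrected -0.41) and ANX2, a receptor kinase of the pollen tube (-1.25 ± 0.27, corrected -1.20). CSLD1 and CSLD4 belong to the same list. Of 24 tapetum and sporopollenin genes, 11 rose and 2 fell (corrected 9 and 1), but their summed level, 4816 to 5428 CPM in complemented and 3915 to 5507 CPM in csld5 libraries, overlapped. EXL4, a lipase-like gene of the tapetum, had 687, 688 and 573 CPM in complemented and 315, 389.9 and 337 CPM in csld5 libraries (0.90 ± 0.09, corrected 0.54) and CYP704B1, which makes sporopollenin precursors, rose (0.82 ± 0.16, corrected 0.65). Of 21 ovule and carpel genes, 6 rose and 3 fell (corrected 4 and 0), with REM22 higher (1.21 ± 0.20, corrected 1.07). The part of such tissue differences in the changes of other genes was not tested.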

How the data were processed

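RNA-seq libraries of dissected Arabidopsis inflorescence meristems were analysed from 1 table of raw counts per gene with TPM values beside them, as deposited by the authors. Per the submitters' processing notes, Trimmomatic 0.39, HISAT2 2.2.1 and featureCounts 2.0.6 were used with TAIR10. No source used here says how strand was handled, and overlapping and antisense genes cannot be told apart. The TPM values, deposited by the authors, served only for an alternative fit with limma. They have 8616 missing cells, of which 643 had a count above 0, and 1783 values where the count was 0. Missing cells were set to 0 in that fit.

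Counts were tested with edgeR 4.0.16 (R 4.3.3): filterByExpr, TMM factors, 1 quasi-likelihood fit of all 9 libraries by genotype, Benjamini-Hochberg adjustment over 22671 genes and a threshold of 0.05. Gene models came from TAIR10.1. In an alternative, mgcv 1.9.3 fitted each library's deviation in log2 CPM on exon GC content and length, and the fitted trend entered as an offset. DESeq2 1.42.0 and limma 3.58.1 were further alternatives. The steps were also run on simulated counts that held no trend with GC content or length, so that run cannot show how the fits handle such a trend. The libraries compared and the 58 gene lists were chosen with earlier results of these data known. Genes named were the CSLD family and meristem genes, the 12 largest non-overlapping rises and falls of called nuclear genes at an average log2 CPM of at least 2, the 8 largest gains and losses in CPM of called nuclear genes, and in each list the 4 smallest p and the largest change. Several genes outside this rule are marked in the text as named after their values were seen. Not marked were, among others, the markers AP1 and PDF1, the uncalled histone genes HTA4 and AT1G13370, and 3 shown for their promoters. Of 1426 listed names 67 were not matched or were dropped.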

Additional observations from a re-analysis of the deposited data

How the results depend on the processing

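Normalisation, filter, tool and left-out libraries were varied for the counts and for each named gene. The total of 9273 genes became 6016 with the GC and length correction, 4583 with it and without csld5 replicate 3, 6057 at an adjusted p below 0.01 and 1233 at a log2 fold change of at least 1. Genes higher numbered 2578, 1806, 2807 and 955 under the same settings. Genes lower numbered 2777 with the correction and without csld5 replicate 3, 278 at a fold change of at least 1 and 3171 with library totals. Leaving out each library in turn gave totals of 7354 to 9412, with 3514 to 4542 higher and 3840 to 4870 lower. Replicate numbers gave no visible sign of pairing: deviations of same-numbered complemented and csld5 libraries correlated at -0.106, -0.024 and 0.049. Differently numbered libraries ranged from -0.158 to 0.183. Whether libraries shared a batch was not tested. A replicate block gave 9504 calls, 4627 higher and 4877 lower, and the block with the correction gave 5876, of which 2524 were higher. Among the named genes, 14 lost their call with the correction and 2 changed sign. With the correction and without csld5 replicate 3, 34 lost their call and 3 changed sign. PSBR, WSD1, BAM1, FLA2, XLT2, ARR5, CAM9, BIP2, TT4 and DMC1 were called with the correction but not in that setting. CSLD3 changed sign to 0.066 with the correction, 0.067 with the block added and 0.051 with the correction and without csld5 replicate 3. CSLD6 changed sign to 0.029 there. ZPR1 changed sign to -0.084 with the correction, -0.090 with the block added and -0.035 with the correction and without csld5 replicate 3. AT3G03265 was at -0.52 with limma on the deposited TPM under each pseudocount and filter. The cause was not tested. VSP1 (-0.40) and LHCB1.3 (-0.42) were not called by limma without a filter.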
